A study of Mus musculus with 6 samples.

Results

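The 9 genes followed here are known as markers of bile duct cells (cholangiocytes) and of the ductular reaction, the expansion of duct-like cells that accompanies liver injury. They are the keratin genes Krt7, Krt8, Krt18, Krt19 and Krt23, the surface protein genes Epcam and Cd24a, and the transcription factor genes Sox4 and Sox9. They were chosen by symbol as a list, with no threshold on their values but with earlier results of these data known. All 9 were found among the 54532 genes of the deposited count table. Of these, 8 had enough counts to be tested, among 13706 genes tested in all, and Krt7 did not. Liver RNA was sequenced from 6 samples of mice aged 5 weeks, 3 of a control group (Ctrl) and 3 of a group in which Fam210a, encoding a protein of the mitochondrial inner membrane, is knocked out in hepatocytes (Fam210aHKO). Poly-T beads were used to select mRNA from total RNA extracted with TRIzol. The sources used here do not give the promoter that drives the recombinase, the deleted part of the gene, or the genotype of the control mice beyond the word Ctrl. The genotype field of Fam210aHKO replicates 2 and 3 names Fam211a and Fam212a, and their titles, which read Fam210aHKO, were used. Nothing in the labels says that each sample came from its own mouse, and the p-values then reflect only how far these samples vary, which may be technical.

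Keratins are intermediate filament proteins that assemble as pairs of one type I and one type II chain. Hepatocytes carry a single such pair, KRT8 with KRT18, and cholangiocytes carry that pair together with KRT7 and KRT19. EPCAM and SOX9 mark cholangiocytes and liver progenitor cells in the adult liver, and in the ductular reaction cells that express these genes spread from the portal tracts into the lobule. The ductular reaction can draw on cholangiocytes and on hepatocytes that take on duct genes, so neither source can be read from bulk RNA alone.

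Library totals lay between 12.54 M and 19.66 M, where M stands for 1e6 counts, and Fam210aHKO replicate 2 was the shallowest library. Values are counts per 1e6 counts (CPM), scaled by TMM factors, which correct for a few very abundant genes taking up reads. A count of 3 was worth between 0.132 and 0.261 CPM. Fam210a itself was at 119, 136 and 162 CPM in the Ctrl libraries and at 31.7, 28.6 and 44.2 CPM in the Fam210aHKO libraries, 25.1% of the control mean (log2 fold change -1.99, SE 0.194, edgeR quasi-likelihood adjusted p = 4.42e-05). Of all tested genes, 14.0% were called higher in Fam210aHKO at an adjusted p under 0.05 and 13.5% lower, 27.5% in all. As for the liver label, Alb, the albumin gene, had 136499 ± 41080 CPM in Ctrl and 74313 ± 10600 CPM in Fam210aHKO (mean ± SD, n = 3 here and below).

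Krt23, Cd24a, Sox4 and Epcam rose in Fam210aHKO livers, with ratios of mean CPM of 6.62, 4.29, 4.17 and 3.02. Krt8, Krt18 and Krt19 had higher means without passing the test, and Sox9 overlapped between the groups. None of the 8 tested genes was lower, whether by the edgeR quasi-likelihood test, at an unadjusted p under 0.05, by DESeq2 or by limma-voom. The 4 genes called higher of 8 tested stand beside the 14.0% of all tested genes called in that direction. In 7 of the 9 genes every Fam210aHKO library lay above every Ctrl library. Krt7, which was not tested, is among the 7, so 6 of the 8 tested stand beside 22.0% of all tested genes. The reverse pattern, held by 20.7% of them, occurred in none of the 9. The median log2 fold change of the 8 genes was 1.47, beside 0.02 for all tested genes. Sox4 (2, 13 and 19 counts in Ctrl) and Krt19 (16, 11 and 8) passed the filter only through Fam210aHKO. Sox4 thus adds no support to the counts of 4 and 6, nor does either gene to the median. The 9 genes were also chosen with earlier results of these data known, so these shares describe the list and support nothing by themselves. These samples are bulk tissue, in which more cells of a type and more RNA per cell cannot be told apart.

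**Figure D1:**
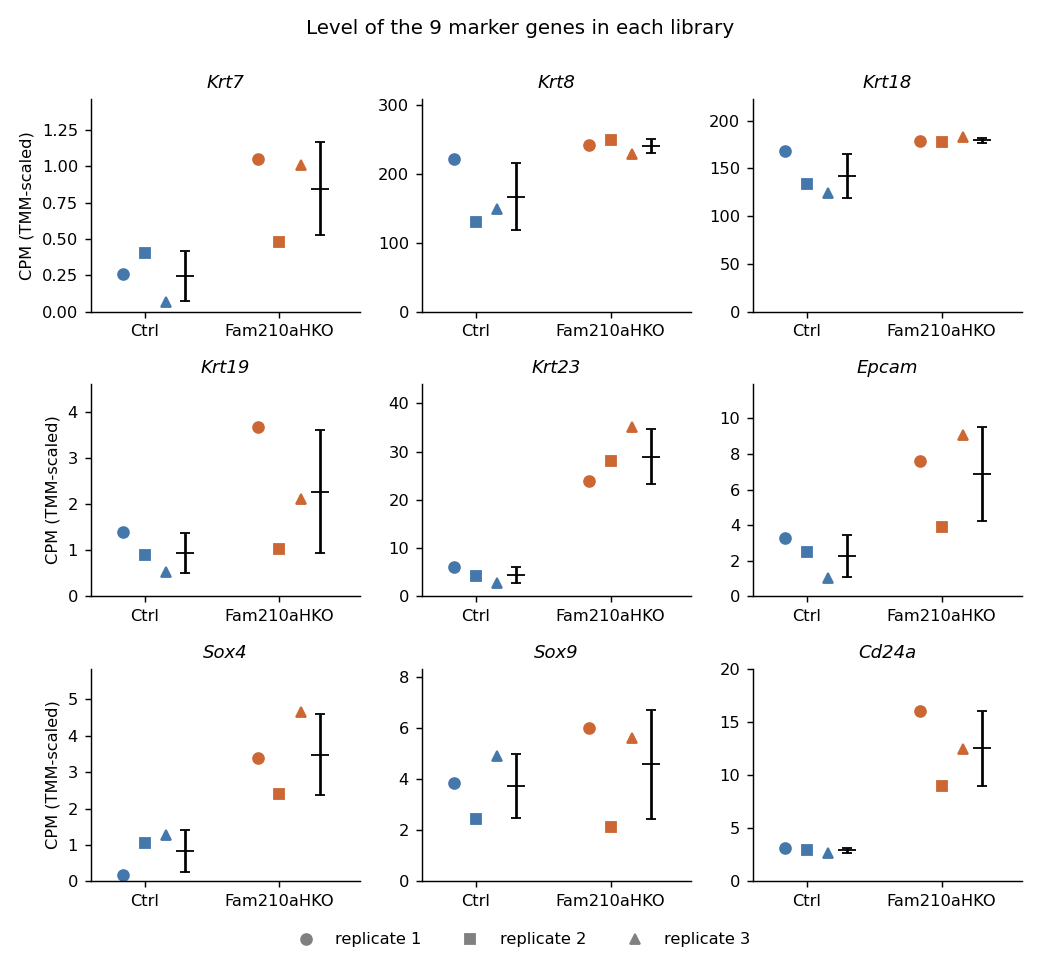
CPM (vertical axis, from 0, a separate scale per gene) of the 9 marker genes in each Ctrl and Fam210aHKO library; points are libraries and bars are means ± SD (n = 3 per group). Krt19 and Sox9 overlap between the groups, and the other 7 genes do not.

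Krt23 encodes a type I keratin that is scarce in normal liver and is known from the ductular reaction of human and mouse liver disease. In the order of the replicate numbers, kept throughout, its level was 6.09, 4.22 and 2.82 CPM in Ctrl, and in Fam210aHKO it was 23.8, 28.0 and 35.1 CPM. The lowest Fam210aHKO library was thus well above the highest Ctrl library. Krt23 rose from 4.38 ± 1.64 to 29.0 ± 5.70 CPM, with a log2 fold change of 2.73 (SE 0.271, 95% confidence interval 2.14 to 3.33, edgeR adjusted p = 4.96e-05). It had the largest fold change of the 8 tested markers, and it rests on 42 to 70 counts per library in Ctrl and 407 to 800 in Fam210aHKO.

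Cd24a encodes a small glycosylated surface protein of epithelial progenitors and of many immune cells. Its level was 3.13, 2.92 and 2.69 CPM in Ctrl and 16.0, 9.01 and 12.5 CPM in Fam210aHKO. The Ctrl libraries were close together and the knockout libraries were all higher, with replicate 2 the lowest of them. Cd24a rose from 2.91 ± 0.221 to 12.5 ± 3.51 CPM (a log2 fold change of 2.11, SE 0.246, edgeR adjusted p = 0.000141). The B cell list, whose cells also carry CD24, had a summed level of 3.82 to 4.97 CPM in Ctrl and 2.87 to 5.83 CPM in Fam210aHKO, and the neutrophil list 2.52 to 3.82 and 2.25 to 5.43 CPM. Both ranges overlap between the groups.

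Epcam encodes the epithelial cell adhesion molecule, which in normal adult liver is found on cholangiocytes and not on mature hepatocytes. Its level was 3.30, 2.52 and 1.01 CPM in Ctrl and 7.61, 3.92 and 9.08 CPM in Fam210aHKO. The groups did not overlap, and Fam210aHKO replicate 2 was nearer to the highest Ctrl library than to the other knockout libraries. Epcam rose from 2.28 ± 1.17 to 6.87 ± 2.66 CPM (a log2 fold change of 1.62, SE 0.411, 95% confidence interval 0.72 to 2.53, edgeR adjusted p = 0.0132). It rested on 15 to 38 counts per Ctrl library, and it missed an adjusted p of 0.01, a threshold that 7.98% of all tested genes passed as higher.

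Sox4 and Sox9 encode HMG-box transcription factors that act together in building the bile ducts of the fetal liver. Sox4 was at 0.174, 1.06 and 1.28 CPM in Ctrl and at 3.40, 2.41 and 4.65 CPM in Fam210aHKO. It rose from 0.835 ± 0.584 to 3.48 ± 1.12 CPM (a log2 fold change of 2.02, SE 0.473, edgeR adjusted p = 0.00880). Ctrl replicate 1 held only 2 counts of it, against 13 and 19 in the other Ctrl libraries. Without that library the log2 fold change was 1.57 (adjusted p = 0.0184).

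Sox9 was at 3.83, 2.44 and 4.91 CPM in Ctrl and at 5.98, 2.13 and 5.61 CPM in Fam210aHKO. Replicate 2 was the lowest library of its group in both groups, and the lowest of all 6 was a knockout library. The means were 3.72 ± 1.24 and 4.58 ± 2.12 CPM, and the difference did not pass the test (log2 fold change 0.31, SE 0.377, 95% confidence interval -0.52 to 1.14, edgeR adjusted p = 0.589). That interval spans 0. Sox9 was called in 0 of 18 alternative analyses. Per kilobase, in the deposited FPKM values, every Ctrl level of Sox9 (0.846 or more) lay above every Ctrl level of Sox4 (0.395 or less), and in Fam210aHKO the ranges overlapped (0.722 to 1.99 and 0.703 to 1.38 FPKM). Sox4 shares 54.1% of its 50-base windows with the overlapping gene Gm26735. Its level beside other genes is therefore uncertain to the extent that reads were dropped there.

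Krt8 and Krt18, the keratin pair of hepatocytes and cholangiocytes alike, were by far the most abundant of the 9 in FPKM. They lie side by side on chromosome 15 and point away from each other, Krt8 from 101996698 to 102004482 on the minus strand and Krt18 from 102028180 to 102032027 on the plus strand (mm10). The gap of 23.7 kb between them holds 0 protein-coding genes. Krt8 was at 222, 130.2 and 149.7 CPM in Ctrl and at 243, 250.0 and 229 CPM in Fam210aHKO. Krt18 was at 168, 134 and 125 CPM in Ctrl and at 178, 178 and 183 CPM in Fam210aHKO. For both genes every knockout library was above every Ctrl library, and the Ctrl libraries were the more spread.

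Krt8 had means of 167 ± 48.5 and 241 ± 10.6 CPM and missed the threshold (log2 fold change 0.52, SE 0.193, 95% confidence interval 0.10 to 0.95, edgeR adjusted p = 0.0664). With the replicate number as a block the log2 fold change was 0.56 and the adjusted p was 0.0142, and without Ctrl replicate 1, its highest Ctrl library, they were 0.77 and 0.00892. Leaving out any other single library gave no call of Krt8, with log2 fold changes of 0.36 (without Ctrl replicate 2) to 0.56 and adjusted p-values of 0.0821 to 0.218. Of all tested genes, 10.3% were called higher without Ctrl replicate 1, and 17.8% with the block. Krt18 had means of 142 ± 23.1 and 179.5 ± 2.67 CPM and did not pass either (log2 fold change 0.34, SE 0.150, edgeR adjusted p = 0.124). Of the 50-base windows of the Krt8 transcripts, 29.7% also occur in another gene, chiefly the pseudogene Krt8-ps, which held 2 to 10 counts per library. The Krt8 counts, 1604 to 5225 per library, are therefore uncertain to the extent that reads were split or dropped there.

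Krt19 and Krt7 are the keratins that set cholangiocytes apart from hepatocytes. Krt19 was at 1.39, 0.893 and 0.538 CPM in Ctrl and at 3.68, 1.03 and 2.11 CPM in Fam210aHKO. The groups overlapped, because Fam210aHKO replicate 2, with 15 counts, lay below Ctrl replicate 1, with 16. The means were 0.941 ± 0.429 and 2.27 ± 1.33 CPM, and the difference did not pass the test (log2 fold change 1.32, SE 0.491, 95% confidence interval 0.24 to 2.40, edgeR adjusted p = 0.0685). With the replicate block the adjusted p was 0.0264 (log2 fold change 1.25), and without Fam210aHKO replicate 2 it was 0.0210 (log2 fold change 1.64), where 10.1% of all tested genes were called higher. Leaving out any other single library gave no call of Krt19, with log2 fold changes of 0.80 (without Fam210aHKO replicate 1) to 1.69 and adjusted p-values of 0.0675 to 0.263.

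Krt7 had 3, 5 and 1 counts in Ctrl and 22, 7 and 23 in Fam210aHKO, too few for the filter. In CPM these were 0.261, 0.406 and 0.0672 against 1.05, 0.482 and 1.01. All 3 knockout libraries were higher than all 3 Ctrl libraries, and a two-sided exact permutation test of the means, 0.245 ± 0.170 and 0.848 ± 0.318 CPM, gave p = 0.1, the smallest value that 3 libraries against 3 allow. When no filter was applied, Krt7 was tested with a log2 fold change of 1.91 and an edgeR adjusted p of 0.0364, and by DESeq2 its adjusted p was 0.114. With one library left out it passed the filter in 4 fits, and its log2 fold change was 1.91 without Ctrl replicate 1 (adjusted p = 0.0979), 2.44 without Ctrl replicate 2 (0.0384), 1.33 without Ctrl replicate 3 (0.163) and 2.10 without Fam210aHKO replicate 2 (0.0319). The unfiltered table called 7.96% of its genes higher.

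**Figure D2:**
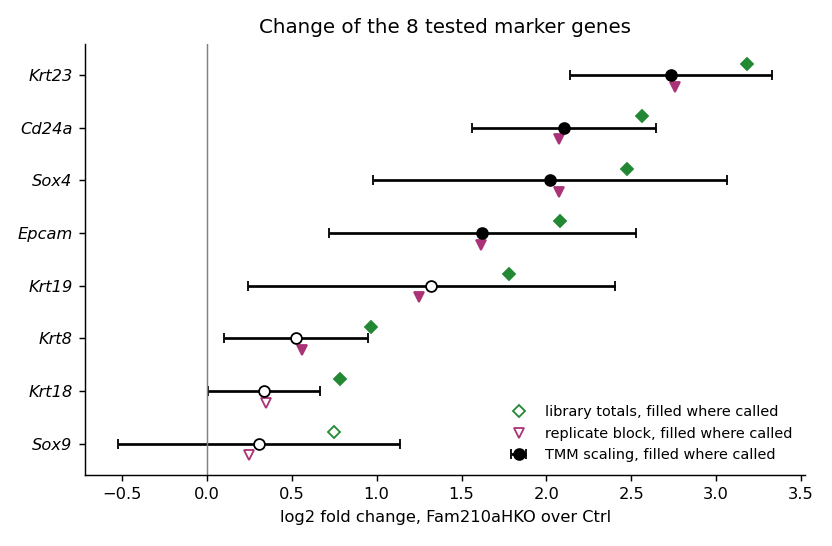
Fitted log2 fold change (Fam210aHKO over Ctrl, horizontal axis) of the 8 tested marker genes, as circles with 95% confidence intervals under TMM scaling, diamonds with library totals and triangles with the replicate block; filled symbols passed an adjusted p under 0.05 in the edgeR quasi-likelihood test. The intervals of Krt23, Cd24a, Sox4 and Epcam lie from 0.72 upward, that of Sox9 spans 0, and the diamonds lie to the right of the circles for all 8 genes.

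Levels per kilobase, in the deposited FPKM values, ordered the genes within each group. In Ctrl Krt18 (145 ± 24.1 FPKM) and Krt8 (125 ± 37.3 FPKM) overlapped at the top, and Krt23 followed far below at 4.09 ± 1.54 FPKM. Cd24a, Epcam, Sox9 and Krt19 came next, from 1.65 ± 0.123 down to 0.742 ± 0.340 FPKM, each overlapping its neighbour. Sox4 (0.255 ± 0.179 FPKM) and Krt7 (0.0505 ± 0.0345 FPKM) were lowest and overlapped. Krt8 stood apart from Krt23, Krt23 from Cd24a, and Krt19 from Sox4, in that no library of the one reached a library of the other.

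In Fam210aHKO the order was Krt18 (175 ± 5.02 FPKM), Krt8 (172 ± 6.22 FPKM), Krt23 (25.95 ± 5.51 FPKM), Cd24a (6.78 ± 1.84 FPKM), Epcam (4.72 ± 1.85 FPKM), Krt19 (1.71 ± 0.982 FPKM), Sox9 (1.55 ± 0.716 FPKM), Sox4 (1.02 ± 0.340 FPKM) and Krt7 (0.168 ± 0.0629 FPKM). Only Krt19 and Sox9 changed places with each other, and they overlapped in both groups. Sox4, which in Ctrl stood apart from Krt19, overlapped with Sox9 and stood apart from Krt7. Even after its rise Krt23 remained far below the Krt8 and Krt18 pair.

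Ratios between markers were compared within libraries, so that scaling between libraries drops out. The log2 ratio of Krt8 to Krt18 was 0.40, -0.04 and 0.26 in Ctrl and 0.44, 0.49 and 0.33 in Fam210aHKO, a difference of 0.21 (exact two-sided permutation p = 0.2). That of Krt19 to Krt8, a measure of duct keratin against the keratin of all liver epithelium, was -7.28, -7.12 and -8.03 in Ctrl and -6.03, -7.87 and -6.75 in Fam210aHKO, a difference of 0.59 (exact p = 0.4). That of Epcam to Krt19 was 1.22, 1.45 and 0.87 in Ctrl and 1.04, 1.89 and 2.10 in Fam210aHKO, a difference of 0.50 (exact p = 0.3). All 3 ratios overlapped between the groups and none passed, with an adjusted p of 0.4 each over the 3, in a design whose smallest exact p is 0.1. Sign flips within the pairs of equal replicate number gave exact p-values of 0.25, 0.5 and 0.5, where the smallest possible is 0.25.

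The 3 knockout libraries did not show the markers to the same degree. Fam210aHKO replicate 2 was the lowest of its group in 7 of the 9 genes, or 77.8%. Among the 1922 genes called higher it was the lowest in 379, or 19.7%, and among all tested genes in 32.0%. Relative to the Ctrl mean on the log2 scale, this library stood at 0.13 for Krt19, 0.78 for Epcam, 0.98 for Krt7 and -0.80 for Sox9, whereas replicates 1 and 3 stood at 1.97 and 1.16, 1.74 and 1.996, 2.10 and 2.04, and 0.68 and 0.59. For Krt8 it was the highest of the 3 knockout libraries, and for Krt23 it lay between the others. Of 15 other bile duct genes tested, 10 were likewise lowest in replicate 2. In other lists given below, so were 6 of 8 keratin filament and desmosome partners and 8 of 16 Notch genes. The same held for 4 of 12 junction genes and 1 of 10 ductular reaction signals. This library also had the fewest counts, and the part of depth in the pattern was not tested.

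**Figure D3:**
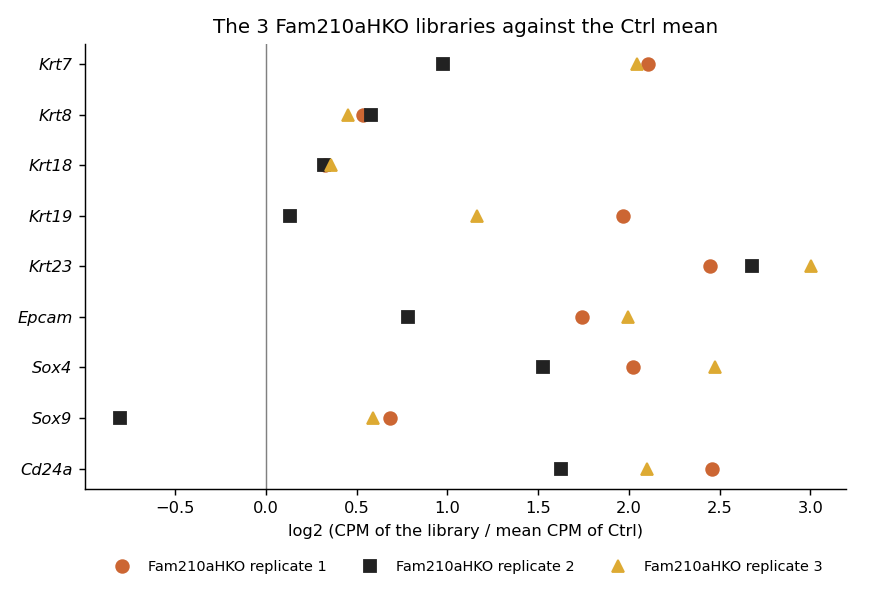
CPM of each Fam210aHKO library over the Ctrl mean (horizontal axis, log2 ratio) for the 9 marker genes; each symbol is one library. Replicate 2 (squares) is the leftmost symbol in 7 of 9 genes and lies at 0.13 for Krt19 and -0.80 for Sox9.

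Upstream sequences are shown for Krt23, Epcam and Sox4, the called markers found in the RefSeq promoter table (GRCm38.p6), so that the start of each gene that rose can be compared. That table held 6 of the 9 genes, also Krt7, Krt8 and Krt18. Each sequence is the 250 bases before the RefSeq start, 5′ to 3′ on the strand of the gene, at chr11:99493121-99493370 (minus strand) for Krt23, chr17:87635729-87635978 (plus strand) for Epcam and chr13:28953700-28953949 (minus strand) for Sox4. Capitals mark matches to any of 9 motifs searched on both strands, which were the TATA box as TATAAA, the GC box as GGGCGG, the CCAAT box as CCAAT, the AP-1 site as TGANTCA, the E-box as CACGTG, the site of CHOP with ATF4 as TGATGNAA, the RBPJ site as GTGGGAA, the TEAD site as GGAATG and the SOX site as ACAAAG.
Krt23: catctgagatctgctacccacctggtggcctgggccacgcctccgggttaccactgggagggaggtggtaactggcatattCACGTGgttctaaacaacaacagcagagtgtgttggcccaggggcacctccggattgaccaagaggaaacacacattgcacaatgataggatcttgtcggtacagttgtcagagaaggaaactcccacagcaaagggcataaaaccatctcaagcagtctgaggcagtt
Epcam: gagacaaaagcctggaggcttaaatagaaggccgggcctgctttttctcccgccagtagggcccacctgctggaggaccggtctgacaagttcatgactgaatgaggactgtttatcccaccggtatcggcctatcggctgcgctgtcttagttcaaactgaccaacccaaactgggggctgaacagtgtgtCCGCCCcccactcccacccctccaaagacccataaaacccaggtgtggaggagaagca
Sox4: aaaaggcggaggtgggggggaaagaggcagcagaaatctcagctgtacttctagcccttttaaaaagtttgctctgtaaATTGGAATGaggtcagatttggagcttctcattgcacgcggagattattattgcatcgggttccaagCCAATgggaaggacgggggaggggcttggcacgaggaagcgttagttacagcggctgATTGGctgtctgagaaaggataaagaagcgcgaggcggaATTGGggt
Krt23 held one CACGTG, present in 6.02% of 32851 promoter windows of this length, and Epcam one GC box, present in 32.7%. Sox4 held 4 CCAAT boxes, a motif found at least once in 33.9% of windows, and its GGAATG, found in 12.6%, shares bases with one of them. In the sequences not shown, Krt8 held one GTGGGAA (5.42% of windows), Krt18 one ACAAAG (16.5%) and Krt7 4 GC boxes. The 3 sequences shown shared no motif, and a match describes letters only. By the deposited positions the windows of Krt23 and Sox4 run into the genes, which reach to 99493137 and 28953713. The CCAAT box nearest to the RefSeq start of Sox4 (-8 to -4) thus lies inside the annotated gene. GC content was 52.8% for Krt23, 56.4% for Epcam and 50.8% for Sox4, around the median of 52.4% of all windows, and 66.0% for Krt7.

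The partner genes of the keratins moved less than Krt23. A list of 10 genes covered desmosomes, proteins that anchor keratin filaments and vimentin, another intermediate filament protein. Of these, 8 were tested, 2 rose and none fell, with a median log2 fold change of 0.31. Of all tested genes, 14.0% were called higher. Plec, encoding the linker plectin, rose from 73.3 ± 10.4 to 118 ± 22.5 CPM (a log2 fold change of 0.69, edgeR adjusted p = 0.0120). Dsp, encoding desmoplakin, rose from 72.4 ± 10.9 to 105 ± 19.6 CPM (0.53, adjusted p = 0.0448). The call of Plec was lost without Ctrl replicate 3 (adjusted p = 0.0529) or Fam210aHKO replicate 1 (0.0608), and Dsp was called in 10 of 18 alternative analyses. None of this list was lower at an unadjusted p under 0.05, by DESeq2 or by limma-voom.

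Among other keratin genes 48 were in the table, and 37 of them had no count in any library. Only Krt10 was tested, with means of 2.08 ± 0.174 CPM (Ctrl) and 1.88 ± 0.235 CPM (Fam210aHKO) (log2 fold change -0.14, edgeR adjusted p = 0.747), and its sign turned with library totals. Krt20, a keratin of gut and urothelial lining picked out after its values were seen, had 0 counts in all 3 Ctrl libraries and 14, 11 and 6 in Fam210aHKO. The Krt20 libraries do not overlap, and the gene failed the filter as Krt7 did. Over the whole list of other keratins edgeR and limma-voom called none, none passed an unadjusted p under 0.05, DESeq2 called 1 higher, and 0 or 1 was called with one library left out. Among 7 other Sox genes tested, none was called, none by DESeq2 or limma-voom, and 1 was lower at an unadjusted p under 0.05. Sox18, a factor of endothelial cells, had a log2 fold change of -0.66 (adjusted p = 0.0555, and 0.0482 with the replicate block), and Sox5 one of -0.46 (adjusted p = 0.178, and 0.0300 with the block).

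Genes of the bile duct outside the 9 were read from a list of 20, of which 15 were tested. Of these, 7 rose, beside 14.0% of all tested genes, though some of the 7 passed the filter only through Fam210aHKO (below). None fell, nor was any lower at an unadjusted p under 0.05, by DESeq2 or by limma-voom. Their median log2 fold change was 1.03. Spp1, encoding osteopontin, a secreted protein made by cholangiocytes and by some macrophages, rose from 42.4 ± 8.75 to 200.0 ± 66.2 CPM (a log2 fold change of 2.24, SE 0.254, edgeR adjusted p = 0.000116). Prom1, encoding the progenitor surface protein CD133, rose from 1.23 ± 0.131 to 6.30 ± 0.860 CPM (2.36, SE 0.252, adjusted p = 8.14e-05). Bicc1, an RNA-binding protein needed for normal ducts, rose from 4.76 ± 1.10 to 14.6 ± 5.03 CPM, and Ehf, an epithelial ETS factor, from 0.956 ± 0.321 to 3.81 ± 1.31 CPM.

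The tight junction gene Cldn4 had 1 count in all Ctrl libraries and 14, 24 and 16 in Fam210aHKO, a ratio of scaled totals of 35.9 (95% exact binomial interval 6.17 to 1443, counting error only), and it passed the filter only through Fam210aHKO. Cldn7 rose from 0.330 ± 0.229 to 1.81 ± 0.618 CPM and Tspan8, a tetraspanin, from 0.730 ± 0.361 to 2.55 ± 0.697 CPM. Cldn7, with 5, 6 and 1 counts in Ctrl, also passed the filter only through Fam210aHKO. Tspan8 (12, 10 and 5 counts in Ctrl) and Ehf (15, 11 and 10) fell short of the filter in Ctrl replicate 3. They too passed only through Fam210aHKO. None of Cldn4, Cldn7, Tspan8 and Ehf thus adds support to the count of called duct genes. Genes that did not pass included Sox17, Pkhd1, Pkd2 and Aqp1. As among the 9 markers, then, some duct genes rose and others gave no call.

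EPCAM acts at the cell surface with claudins, proteases and cadherin, and a list of 12 such genes was tested in full. Of these, 3 rose, 1 fell and 8 did not pass, with a median log2 fold change of 0.27. Of all tested genes, 14.0% were called higher and 13.5% lower. St14, encoding the protease matriptase that cleaves EPCAM, rose from 0.424 ± 0.173 to 2.57 ± 0.914 CPM (2.56, edgeR adjusted p = 0.00152). Spint1, encoding its inhibitor HAI-1, rose from 0.323 ± 0.148 to 1.56 ± 0.458 CPM (2.22, adjusted p = 0.00444). St14 (3, 5 and 9 counts in Ctrl) and Spint1 (2, 4 and 7) passed the filter only through Fam210aHKO. The count of 3 that rose therefore supports nothing by itself. Cdh1, encoding E-cadherin, rose from 44.9 ± 8.51 to 67.9 ± 10.9 CPM (0.59, adjusted p = 0.0290) and was called in 12 of 18 alternative analyses, not without Ctrl replicate 1, Ctrl replicate 3 or Fam210aHKO replicate 3. Psen2, a catalytic subunit of the gamma-secretase that releases the EPCAM intracellular domain, fell from 185 ± 17.1 to 59.5 ± 3.10 CPM (-1.64, adjusted p = 1.99e-05). Psen2 thus moved opposite to Epcam, and St14 and Spint1 in the same direction as Epcam.

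Notch signalling, which directs cells to the bile duct fate and acts upstream of Sox9, was read from 18 genes, of which 16 were tested. One rose and none fell, by DESeq2 and limma-voom too, with 1 lower at an unadjusted p under 0.05. Of all tested genes, 14.0% were called higher. With one library left out, 0 or 1 of the Notch genes was called lower. Hes1, a direct Notch target, rose from 2.73 ± 1.04 to 5.93 ± 0.879 CPM (a log2 fold change of 1.11, SE 0.294, edgeR adjusted p = 0.0163). The ligand gene Jag1 was at 5.91 ± 0.784 and 8.21 ± 1.95 CPM and was not called (0.48, adjusted p = 0.144). The median of the 16 was -0.04, close to the 0.02 of all tested genes.

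Signals known to start or sustain a ductular reaction were read from 15 genes, of which 10 were tested. Of these, 3 rose, beside 14.0% of all tested genes. None fell, nor was any lower at an unadjusted p under 0.05, by DESeq2 or by limma-voom. With one library left out, 0 or 1 of them was called lower. Met lay lower in every Fam210aHKO library than in any Ctrl library without a call (log2 fold change -0.35, edgeR adjusted p = 0.131). Tnfrsf12a, the receptor for the cytokine TWEAK, rose from 8.43 ± 2.35 to 68.1 ± 13.3 CPM, by 3.02 on the log2 scale (SE 0.231, edgeR adjusted p = 1.13e-05). Its ligand gene Tnfsf12 was at 3.49 ± 0.972 and 3.65 ± 0.177 CPM and gave no call (adjusted p = 0.889). In this receptor replicate 3 was the lowest knockout library, whereas in 7 of the 9 markers it was replicate 2. Ccn2, listed as Ctgf, a matricellular protein and target of YAP, rose from 12.2 ± 2.30 to 24.2 ± 4.49 CPM (0.99, adjusted p = 0.00372). Itgb8, an integrin subunit that activates TGF-beta, rose from 0.523 ± 0.455 to 1.89 ± 0.934 CPM (1.90, adjusted p = 0.0296), a call lost without Ctrl replicate 2 (log2 fold change 1.66), Ctrl replicate 3 (1.45) or Fam210aHKO replicate 1 (1.40). Without Ctrl replicate 1 the value was 2.82 (adjusted p = 0.0127). Itgb8, with 12, 4 and 3 counts in Ctrl, passed the filter only through Fam210aHKO. It thus adds no support to the count of 3 that rose.

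The counter-receptors of CD24 were read from 3 genes, of which 2 were tested. None was called by edgeR, DESeq2 or limma-voom, and none passed an unadjusted p under 0.05. Siglecg failed the filter, with 1, 3 and 0 counts in Ctrl and 3, 7 and 5 in Fam210aHKO, so its change was not tested. Siglece, an inhibitory receptor of myeloid cells, was at 2.98 ± 1.25 and 3.06 ± 0.876 CPM. Selp, encoding P-selectin of endothelium and platelets, was at 1.98 ± 0.557 and 1.38 ± 0.303 CPM.

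**Figure D4:**
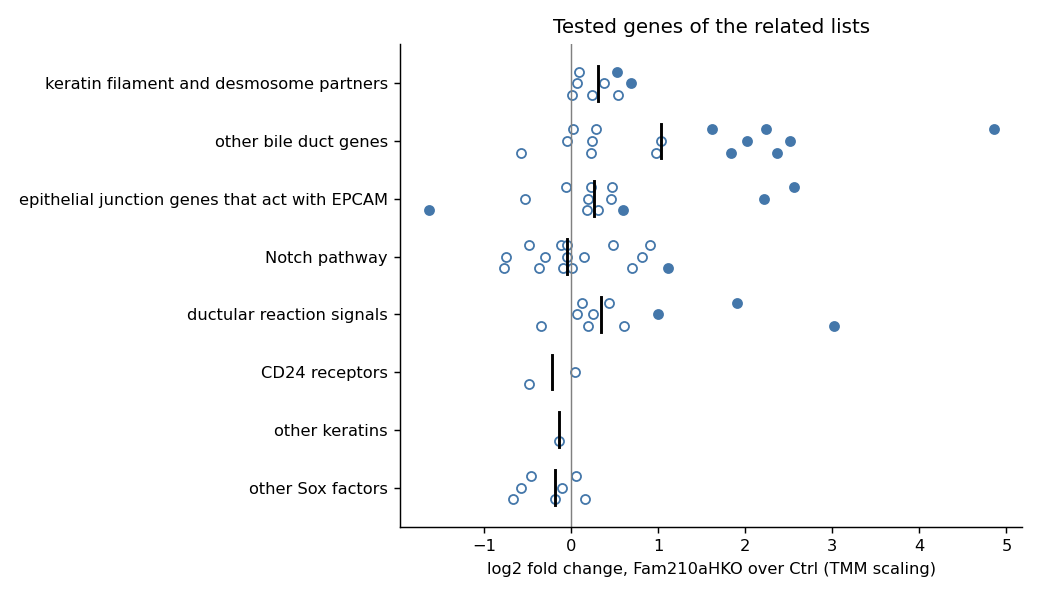
Fitted log2 fold change (Fam210aHKO over Ctrl, horizontal axis) of every tested gene in the related gene lists (rows; the 9 markers are not drawn); filled points passed an adjusted p under 0.05 and open points did not, and the vertical tick in each row is the median. The medians are 1.03 for the other bile duct genes and -0.04 for the Notch genes, and the rightmost point among the bile duct genes, Cldn4, rests on 1 Ctrl count.

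Which genes followed the markers most closely over the 6 libraries was read from Pearson's r of log2 CPM against 13705 genes, as a description. The libraries fall into 2 groups, so any gene that differs between the groups scores high. Krt8 was followed most closely by Usp43 (r = 0.991), Gm45819 and Cfap157, and Krt18 ranked 90 (r = 0.944). Krt19 was followed by Bbof1 (r = 0.993), Sppl3 and Trp53rkb, with Epcam at rank 71 (r = 0.904). Epcam was followed by Rhob (r = 0.996), Bud13 and Ehd2, with Krt19 at rank 147. Sox9 was followed by Fam189b (r = 0.973), Foxk1 and Gle1, and its nearest marker, Krt19, ranked 1431 (r = 0.515).

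Other cell types were read from their own marker lists, beside which the duct markers should be seen. Each count called in these lists stands beside the 14.0% of all tested genes called higher and the 13.5% called lower. Of 7 hepatocyte genes 4 were called lower (Serpina1a, Asgr1, Apoa1 and Ttr, also with library totals), while DESeq2 called 6 and limma-voom 5. Their summed level was 140105 to 218414 CPM in Ctrl and 81141 to 100401 CPM in Fam210aHKO. Alb made up most of that sum and was not called (edgeR adjusted p = 0.449), nor were Cps1 (0.171) and Tat (0.519). Mesothelial cells share Krt7, Krt8, Krt18 and Krt19 with ducts. Of 7 mesothelial marker genes 2 were tested, Upk3b and Msln, and both were called lower, but they passed the filter through their Ctrl counts, so this count of 2 supports nothing by itself. The summed level over all 7 genes was 3.91 to 4.23 CPM in Ctrl and 0.413 to 1.20 CPM in Fam210aHKO. Upk3b was at 0 counts in Fam210aHKO replicate 2.

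Stellate cell genes summed to 276 to 343 CPM in Ctrl and 372 to 489 CPM in Fam210aHKO, with 1 of 6 called higher (Col1a1, a call lost in 6 of 18 alternatives). Dcn made up most of that sum and was not called (edgeR adjusted p = 0.0581). Kupffer cell and macrophage genes summed to 303 to 417 and 242 to 448 CPM, with 1 of 6 called higher (Cd68). Sinusoidal endothelial genes summed to 264 to 357 and 169 to 290 CPM, with 2 of 6 called lower (Stab2 and Clec4g), of which Stab2 was called in 11 and Clec4g in 9 of 18 alternatives. With one library left out, 0 to 4 genes of that list were called lower. T cell genes summed to 2.92 to 4.37 and 2.13 to 3.11 CPM, with none of 2 tested called by edgeR, DESeq2 or limma-voom and 1 lower at an unadjusted p under 0.05. No B cell gene of 4 tested and no neutrophil gene of 2 tested was called by any of these tools or passed an unadjusted p under 0.05.

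Erythroid genes summed to 65.9 to 79.5 CPM in Ctrl and to 22.2, 16.7 and 139 CPM in Fam210aHKO, with Alas2 and Klf1 lower and Hba-a1 at 112 CPM in replicate 3. Pancreatic acinar genes, as a sign of tissue carried over in dissection, were at most 0.0877 CPM in sum in any library, with 2 of 6 at 0 throughout. The acinar genes were near 0 in Ctrl and Fam210aHKO alike. The part of hepatocyte, stellate, macrophage, mesothelial or acinar content in the levels of the 9 markers was not tested.

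**Figure D5:**
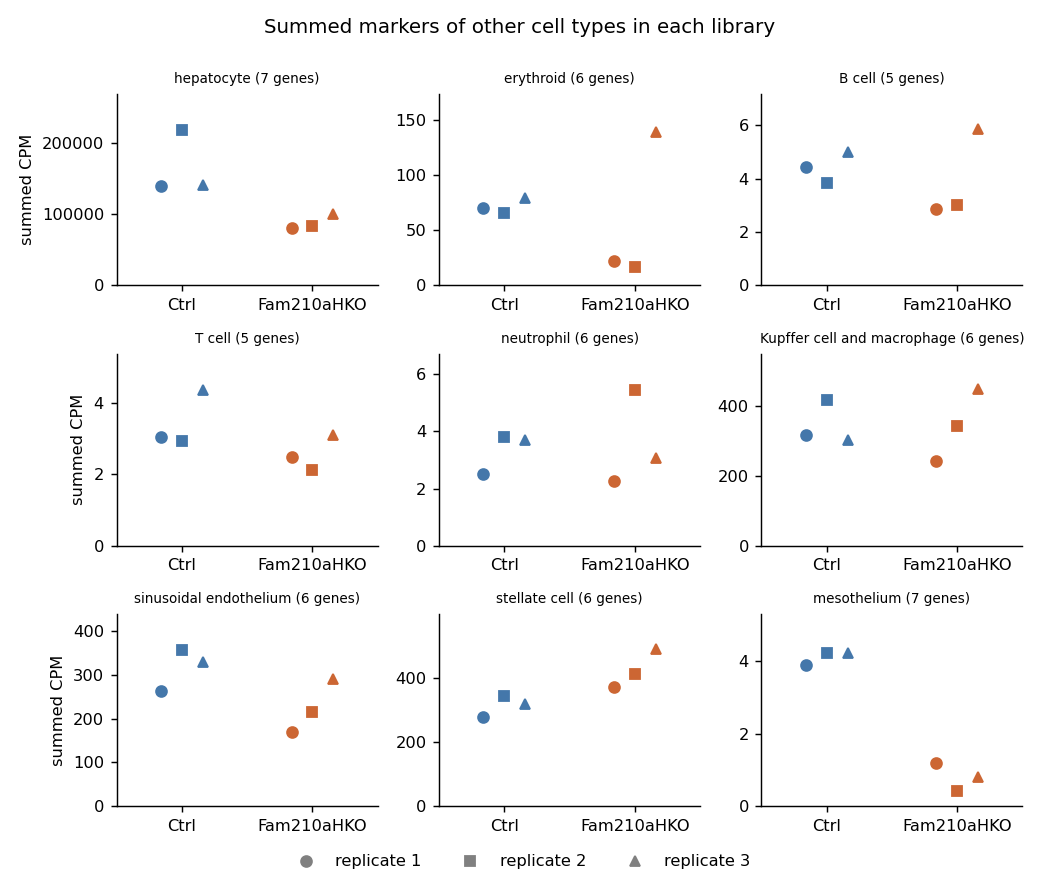
Summed CPM (vertical axis, from 0, a separate scale per panel) of marker lists of other cell types in each library; points are libraries. The hepatocyte and mesothelium lists are lower in all 3 Fam210aHKO libraries and the stellate list is higher, while the macrophage, B cell, T cell and neutrophil lists overlap between the groups.

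Among the scalings, only plain library totals changed how many of the markers were called. Median-of-ratios and upper-quartile scaling each called 4 higher, as TMM scaling did. TMM factors were 0.797 to 0.887 in Ctrl and 1.16 to 1.19 in Fam210aHKO. When plain library totals were used, the median log2 fold change moved from 0.02 to 0.47 over all tested genes and from 1.47 to 1.93 over the 8 markers. Then 7 of the 8 markers were called higher, all but Sox9, and so were 42.7% of all tested genes, while 6.33% were lower. Calls were 50.9% higher with TMM factors and 87.1% higher with library totals. No marker was called lower in any of the 18 alternatives. DESeq2 called 5 markers higher, beside 11.1% of its genes, and leaving out one library in turn called 4 to 6, beside 9.54% to 13.7% of all genes.

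Gene positions are those of the deposited table (mm10). Krt7 lies on chromosome 15 from 101411043 to 101430313, in the same keratin cluster as Krt8 and Krt18. Krt19 (100140810 to 100148665), Krt23 (99477974 to 99493137) and Sox9 (112782224 to 112787760) lie on chromosome 11, Epcam on chromosome 17 (87635979 to 87651106), Sox4 on chromosome 13 (28948919 to 28953713) and Cd24a on chromosome 10 (43578284 to 43584265). Sox4 is overlapped by the lincRNA gene Gm26735, with which it shares 54.1% of its 50-base windows and which had 0 counts. Krt7 and Krt8 are overlapped by Gm671 and Gm36026, which had at most 1 and 4 counts in a library, and the sources used here do not say whether counting used the strand.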

How the data were processed

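The authors deposited one table with raw counts, whole numbers for each gene in each library, and FPKM values beside them; the library size behind their FPKM is not stated. FPKM was used to order levels within a group and in 2 alternatives. The submitters' processing notes name FastQC, Trimmomatic, STAR, featureCounts, DESeq2 and mm10, without versions.

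Samples were grouped by their titles. Counts were fitted in edgeR 4.0.16 (R 4.3.3) with group as the only factor, filterByExpr (minimum count 10), TMM scaling and the quasi-likelihood test. Benjamini-Hochberg adjustment ran over the 13706 tested genes, and genes with an adjusted p under 0.05 were called. Standard errors (SE) were taken as the log2 fold change, without sign, over the square root of F. Ratios within a library used counts plus 0.5 and an exact two-sided permutation test over 6 libraries. Depth was 12.54 M to 19.66 M counts per library (M is 1e6), and replicates varied beyond counting error (common biological coefficient of variation 0.196). The fit was tested on simulated data.

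The members and lists were chosen with earlier results of these data known. Named beside the 9 markers are, per related list, up to 4 called genes (lowest p first) in the list's main direction and up to 2 in the opposite one, or its 2 most abundant genes if no gene was called; Krt20, Cldn4, Cldn7, Tspan8, Tnfsf12, Alb, Hba-a1 and the listed genes without a call were added after their values were seen. The 3 genes most like Krt8, Krt19, Epcam and Sox9 were taken by Pearson's r. Deviations from group means correlated at 0.245, 0.182 and 0.155 between same-numbered libraries and at -0.141 to -0.0262 otherwise, so the numbers pair the samples by that measure; what they stand for is not given. Alternatives were 3 other scalings, no filter, a filter on CPM, DESeq2 1.42.0, limma-voom (limma 3.58.1), the legacy test, log2 FPKM with pseudocounts of 1 and 0.1, a threshold of 0.01, each library left out and the replicate block. Some genes of the lists are not reported here.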

Additional observations from a re-analysis of the deposited data

How the results depend on the processing

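Krt23, Cd24a and Sox4 were called higher in 18 of 18 alternatives and Epcam in 17, failing only an adjusted p under 0.01. Krt19 and Krt8 were called in 4 each, Krt18 in 1 and Sox9 in 0. The markers called higher numbered 4 to 6 when one library was left out and 6 with the replicate block, which also called Krt8 and Krt19 and changed no other marker. With library totals 7 were called, and over all genes 5846 higher and 868 lower, while a threshold of 0.01 left 1094 and 1068. The log2 ratios kept their sign, ranging with one library left out from 0.09 to 0.31 (Krt8 to Krt18), 0.17 to 1.09 (Krt19 to Krt8) and 0.29 to 0.81 (Epcam to Krt19). With library totals the sign turned for Krt10 (0.32), Sox12 (0.27) and Sox6 (0.33), none called. With one library left out the log2 fold change ranged from -0.000131 to 0.23 for Sox13, -0.39 to 0.028 for Sox12, -0.39 to 0.035 for Sox6 and -0.28 to 0.24 for Siglece. The block also called Sox18 (-0.66) and Sox5 (-0.50) lower. The cause was not tested. Depth limits Krt7, at 1 to 23 counts per library.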
